A study of Mus musculus with 6 samples.

Results

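The genes described here encode the DNA replication machinery: the proteins that mark origins, unwind and copy DNA, supply its nucleotides and repack it behind the fork. They are 38 genes chosen by symbol, and all 38 were found among the 19938 genes measured, with the probe set of the highest mean kept per gene. Gene expression was measured on 6 mouse arrays, 3 of cultured and 3 of fresh satellite cells, the stem cells of skeletal muscle. The cultured cells were sorted, then kept for 5 days on collagen and laminin in F10 medium with 20% donor horse serum and 5 ng/ml basic fibroblast growth factor added each day. The fresh cells came from the same kind of sort and were not cultured. All cells were from resting hind-limb, abdominal and triceps muscle of 2-month-old C57BL/6J mice, sorted for beta-1 integrin and CXCR4 and against CD45, CD31, CD11b, Ter119 and Sca1. The labels count 3 mice without saying which array came from which, so the spread behind each p-value is that between samples and may in part be technical.

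DNA is copied once per cell cycle. Origins are licensed in G1, when the origin recognition complex, Cdc6 and Cdt1 load the MCM helicase, and fire in S phase, when Cdc45 and GINS switch the helicase on. Polymerases then copy the strands, held to DNA by the ring-shaped clamp PCNA. Most satellite cells in resting muscle are quiescent and outside the cycle, and they enter it in growth medium. Many of these genes are known targets of E2F transcription factors, which are held inactive by the retinoblastoma family in quiescent cells.

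All values are on the log2 scale as deposited, each group mean is of 3 arrays, and the number of arrays limits the precision. Most satellite cell markers were detected in both groups. Of 10 satellite cell markers, 9 were above background on every cultured array and 10 on every fresh array. In the cultured cells 6 of the 10 fell by limma at an adjusted p under 0.05, against 3.37% of all genes. They were Pax7, Myf5, Cxcr4, Vcam1, Sdc4 and Calcr. Cxcr4, which encodes an antigen sorted for, had a log2 fold change of -2.47. Background here means the 95th percentile of receptor genes of the nose on each array. By replicate this level was 3.23, 3.40 and 3.28 for cultured arrays, against 3.23, 3.17 and 3.23 for fresh arrays. The endothelial and leukocyte markers Pecam1, Ptprc and Itgam, which encode the antigens sorted against, lay within background on all 6 arrays. Of all 6 endothelial markers Vwf was above background on every array, and Tek was so on 2 fresh arrays and no cultured one and fell, with an adjusted p of 0.0413. Of all 8 leukocyte markers Cd3e was above background on every array, and Cd68 on 3 fresh arrays and 1 cultured array. Summed on the linear scale, the endothelial markers came to 48.5 to 50.4 on cultured arrays and 47.7 to 51.9 on fresh arrays, and the leukocyte markers to 54.9 to 56.0 on cultured arrays and 54.8 to 64.2 on fresh arrays. Some fibro-adipogenic markers moved with the group and others did not. Summed on the linear scale, 6 of them came to 97.4 to 98.1 on cultured arrays and 374 to 664 on fresh arrays. Of the 6, 3 fell, Dpt, Dcn and Col3a1, against 3.37% of all genes. Pdgfra, Col1a1 and Pi16 did not pass the test, with log2 fold changes of 0.27, -0.13 and -0.04. Dpt and Dcn were within background on every cultured array. The part of the fibro-adipogenic markers in the results below was not tested. The arrays also differed in their bright values. Over the 236 genes with a mean above 8, the median difference from the fresh mean was 0.03, -1.74 and -1.18 on cultured replicates 1, 2 and 3.

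Expression of 4 replication genes rose in the cultured cells and none fell. They were Pclaf, Rrm2, Mcm6 and Dut, a partner of the replication clamp, a ribonucleotide reductase subunit, a helicase subunit and the dUTPase. With limma and Benjamini-Hochberg adjustment, 190 of 19938 genes passed an adjusted p of 0.05 upward, 0.953%, and 671 passed downward, 3.37%. Higher calls were 22.1% of all calls, and between 10.8% and 38.8% of them over the 14 other settings tried, with the lowest share without fresh replicate 3 and the highest after a further quantile normalization. Most replication genes that missed the test still had higher means in cultured cells. Of the 38, 36 had a positive log2 fold change, against 56.6% of all genes, and their median was 0.59, against 0.04 for all genes. An unadjusted p under 0.05 was reached upward by 25 of the 38, against 8.58% of all genes, and downward by 1, Pcna, against 9.06%. The cultured arrays all lay above the fresh arrays for 21 of the 38, against 12.9% of all genes, and all below for none, against 10.3%. Orc1 and Pole are among the 21, though both were within background on all 6 arrays. A fitted change of at least 2-fold upward, which is 1 on the log2 scale, was found in 9 members, against 1.12% of all genes. It was found downward in 1, Pcna, against 4.42%. Prim1 and Pole2 are among the 9, but their fresh values were all within background, with bounds of only 1.47-fold and 1.34-fold. A bulk level cannot tell more cells in S phase from more RNA per cell.

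The count of 4 depended on single arrays and on scaling. It was 1, Rrm2, without fresh replicate 2, where 0.296% of all genes were called higher and 2.1% lower, and again without fresh replicate 3, where 0.256% were called higher and 2.11% lower. It was 2, both higher, without cultured replicate 3, where 0.341% of all genes were called higher and 1.91% lower. Without cultured replicate 1 it was 7, of which 6 were higher and 1, Pcna, lower, where 1.2% of all genes were called higher and 6.41% lower. It was 12 after a further quantile normalization, where 2.94% of all genes were called higher and 4.64% lower, and 9 with cyclic loess, where 2.29% were called higher and 5.19% lower. With array weights it was 14, of which 13 were higher and 1, Pcna, lower, where 2.93% of all genes were called higher and 5.8% lower. By replicate these weights were 0.65, 0.57 and 2.63 for cultured arrays and 0.82, 1.08 and 1.16 for fresh arrays. The weighted cultured values thus rest mostly on replicate 3.

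**Figure D1:**
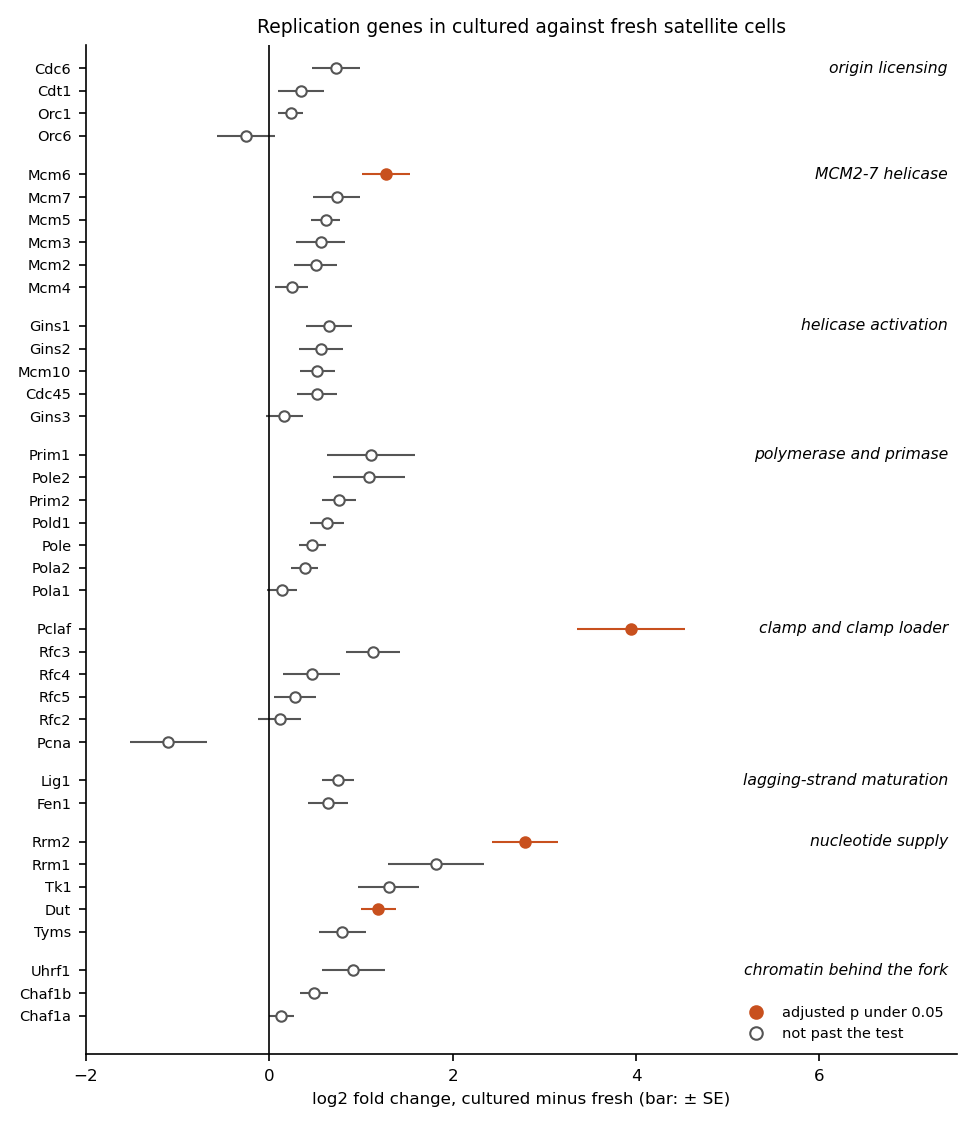
Log2 fold change of the 38 replication genes, cultured minus fresh, on the horizontal axis, grouped by role down the page; points are limma estimates, bars ± SE, and filled points passed an adjusted p of 0.05. The 4 filled points are Mcm6, Pclaf, Rrm2 and Dut, and only Orc6 and Pcna lie left of 0.

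Pclaf, a small protein that binds PCNA at the fork, had 8.27, 5.61 and 6.39 on the cultured arrays, against 3.02, 2.63 and 2.79 on the fresh arrays. All fresh values were within background, so the rise is best read as at least 11.7-fold, beside a fitted log2 fold change of 3.95 ± 0.59 (SE) and an adjusted p of 0.00872. Without cultured replicate 1 the log2 fold change of Pclaf was 3.19 and the bound 6.94-fold. A further probe set gave 3.19 over all arrays. The 3 cultured values of Pclaf spread widely, with an SD of 1.37 against 0.20 in fresh cells, and leaving out fresh replicate 2 or 3 took its adjusted p just past the threshold, to 0.0524 at most. Rrm2, the small subunit of ribonucleotide reductase that is made in S phase, had 7.03, 5.67 and 6.14 on the cultured arrays, against 3.00, 3.66 and 3.81 on the fresh arrays. The groups of Rrm2 were far apart, with a log2 fold change of 2.79 ± 0.36 (SE), 6.92-fold, and an adjusted p of 0.00455. Rrm2 kept its call in all 14 other settings tried, at adjusted p of 8.59e-05 to 0.0274.

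Mcm6, one of the 6 subunits of the replicative helicase, had 5.28, 4.16 and 4.68 on the cultured arrays, against 3.43, 3.34 and 3.54 on the fresh arrays. The lowest cultured value of Mcm6 was above the highest fresh one, with a log2 fold change of 1.27 ± 0.27 (SE), 2.42-fold, and an adjusted p of 0.0405. Leaving out cultured replicate 3 or any fresh array ended the call of Mcm6, with a largest adjusted p of 0.147. Dut, which removes dUTP and so keeps uracil out of new DNA, had 5.87, 5.19 and 5.49 on the cultured arrays, against 4.23, 4.39 and 4.35 on the fresh arrays. The groups of Dut were well apart, with a log2 fold change of 1.19 ± 0.19 (SE), 2.28-fold, and an adjusted p of 0.0117. Leaving out cultured replicate 3 or fresh replicate 2 or 3 ended the call of Dut, with a largest adjusted p of 0.0601.

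The promoters of these 4 genes and of Pcna, the member that differed most in the other direction, are shown because E2F factors are the known regulators of the group. Each stretch runs from 140 bases before to 10 bases after the RefSeq start site on GRCm38.p6, 5′ to 3′ on the strand of the gene, and capitals mark matches to the E2F letters TTTCCCGC, TTTGGCGC, TTTCGCGC and TTTGCCGC or to the CCAAT box CCAAT, on either strand.
Mcm6, chr1:128359696-128359845, minus strand: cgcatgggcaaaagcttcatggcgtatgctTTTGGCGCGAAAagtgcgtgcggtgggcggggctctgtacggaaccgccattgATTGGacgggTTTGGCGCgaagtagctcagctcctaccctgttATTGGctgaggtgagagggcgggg
Pclaf, chr9:65890183-65890332, plus strand: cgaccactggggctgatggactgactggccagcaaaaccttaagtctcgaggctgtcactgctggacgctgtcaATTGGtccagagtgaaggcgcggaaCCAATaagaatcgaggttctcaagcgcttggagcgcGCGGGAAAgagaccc
Rrm2, chr12:24708114-24708263, plus strand: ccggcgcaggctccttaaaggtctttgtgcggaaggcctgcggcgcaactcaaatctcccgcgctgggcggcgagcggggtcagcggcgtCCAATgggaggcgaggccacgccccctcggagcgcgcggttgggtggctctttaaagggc
Dut, chr2:125247375-125247524, plus strand: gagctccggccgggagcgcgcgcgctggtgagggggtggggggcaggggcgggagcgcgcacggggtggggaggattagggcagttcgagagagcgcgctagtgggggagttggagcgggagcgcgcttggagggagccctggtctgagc
Pcna, chr2:132253171-132253320, minus strand: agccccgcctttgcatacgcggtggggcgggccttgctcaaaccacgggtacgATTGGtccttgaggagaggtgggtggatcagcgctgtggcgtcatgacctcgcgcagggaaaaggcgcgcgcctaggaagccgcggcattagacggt
The Mcm6 stretch holds 3 E2F matches, 2 of them overlapping on opposite strands, and that of Pclaf holds 1 across the start site. In Rrm2, Dut and Pcna these letters were not in the window.

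Promoter windows of 300 bases, from 250 before to 50 after the start, were given for 32 of the 38 genes, and 4 of these had several. An E2F match was present in 15 of the 32, 46.9%, against 3.48% of the 15614 measured genes with a window. By role, the match was found in 3 of 4 licensing genes, 4 of 5 MCM genes, 3 of 5 polymerase and primase genes, 1 of 3 helicase activation genes, 2 of 5 clamp and clamp loader genes, 1 of 2 lagging-strand genes, 1 of 3 chromatin genes and 0 of 5 nucleotide supply genes. Mcm2 was the MCM gene without one. A CCAAT box was present in 19 of the 32, 59.4%, against 41.7% of measured genes, and the letters TTTGAA, the cell cycle homology region of mitotic genes, in 4 of the 32, 12.5%, against 17.3%. In these windows 1 E2F match overlapped a CCAAT box. The median GC content was 58.3% for the replication genes and 57.3% for the measured genes. The matches are a description of letters, and no link between them and the fold changes was tested.

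**Figure D2:**
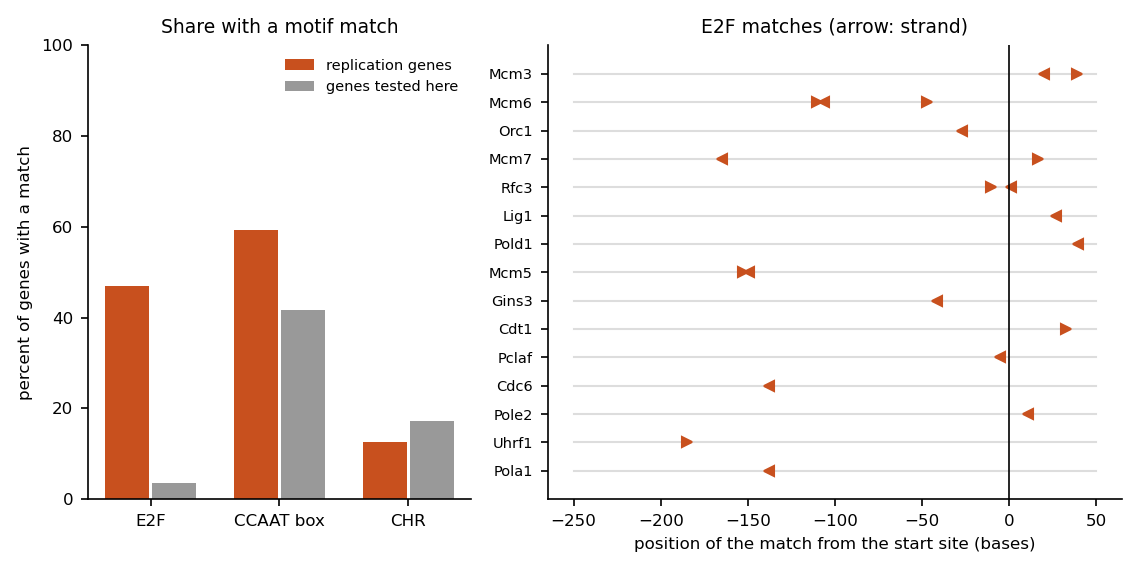
Left, percent of genes with a match to each motif in the promoter window, for the 32 replication genes and the 15614 measured genes. Right, position in bases of each E2F match from the start site in the 15 genes that hold one, with the arrow pointing along its strand; Mcm3, Mcm5, Mcm6, Mcm7 and Rfc3 hold more than 1.

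Genes of nucleotide supply had a median log2 fold change of 1.30 over 5 members. That was the highest of the 8 role medians here and in all 14 other settings. Of the 5, 2 rose, Rrm2 and Dut, against 0.953% of all genes. The cultured arrays all lay above the fresh arrays for all 5, against 12.9% of all genes. Rrm1, the large subunit of ribonucleotide reductase, had 5.96, 3.56 and 4.48 on the cultured arrays, against 2.89, 2.97 and 2.70 on the fresh arrays. Its log2 fold change was 1.82 ± 0.52 (SE), at least 2.75-fold since all fresh values were within background, and its adjusted p of 0.110 missed the threshold with cultured values spread over an SD of 1.21. Rrm1 passed without cultured replicate 1, at 1.17 with a bound of 1.76-fold, and without cultured replicate 2, at 2.37. Tk1, which salvages thymidine in S phase, was at 1.30 ± 0.33 (SE), with an adjusted p of 0.0799, and likewise passed without either of those arrays. A further probe set of Tk1 gave 0.46. Tyms, which makes the thymidine nucleotide from the uridine one, had 4.11, 3.45 and 4.10 on the cultured arrays, against 3.24, 3.38 and 2.64 on the fresh arrays. The groups of Tyms did not overlap but nearly met, at 0.80 ± 0.26 (SE) with an adjusted p of 0.153. RefSeq also lists a transcribed pseudogene of Tyms, which could share its probes.

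**Figure D3:**
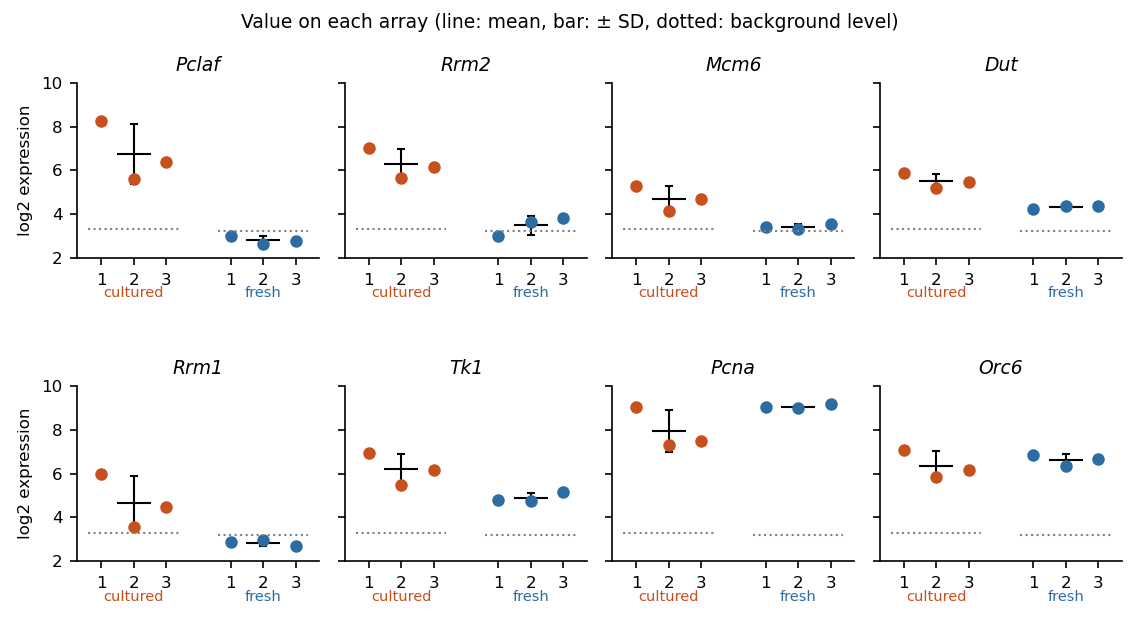
Log2 expression on each array for 8 replication genes, cultured replicates 1 to 3 at the left and fresh replicates 1 to 3 at the right of each panel; lines are means, bars ± SD and dotted lines the mean background level of each group. Pclaf, Rrm2, Mcm6, Dut, Rrm1 and Tk1 are higher on every cultured array, while cultured replicate 1 of Pcna is level with the fresh arrays and replicates 2 and 3 are lower.

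The MCM genes encode the 6 subunits of the ring that unwinds DNA. All 6 had positive log2 fold changes, 0.24 to 1.27 with a median of 0.59. Only Mcm6 rose past the test, against 0.953% of all genes. The cultured arrays all lay above the fresh arrays for Mcm5, Mcm6 and Mcm7, against 12.9% of all genes. Mcm2 had 4.50, 3.85 and 4.32 on the cultured arrays, against 4.12, 3.60 and 3.43 on the fresh arrays, which overlapped, and its log2 fold change of 0.51 ± 0.24 (SE) had an adjusted p of 0.319. Mcm4, the lowest, had 4.47, 3.97 and 4.11 on the cultured arrays, against 3.999, 3.74 and 4.08 on the fresh arrays. The Mcm4 groups overlapped too, at 0.24 ± 0.18 (SE) and an adjusted p of 0.540. Mcm7 at 0.74 and Mcm5 at 0.62 had adjusted p of 0.186 and 0.0815, and both passed after quantile normalization and with cyclic loess.

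The 5 genes that switch the helicase on, Cdc45, Gins1, Gins2, Gins3 and Mcm10, had values of 0.16 to 0.65 on the log2 scale, and none passed the test. Gins1, a subunit of the GINS complex, had 3.48, 3.32 and 2.67 on the cultured arrays, against 2.86, 2.40 and 2.26 on the fresh arrays, with an adjusted p of 0.228. All 3 fresh values of Gins1 and those of cultured replicates 2 and 3 were within background. Gins3, another GINS subunit, had 3.19, 3.67 and 3.49 on the cultured arrays, against 3.15, 3.07 and 3.63 on the fresh arrays, overlapping, at an adjusted p of 0.742. The groups did not overlap for Gins2 and for Mcm10, a scaffold of helicase activation, at adjusted p of 0.275 and 0.207. In both the cultured arrays all lay above the fresh arrays, against 12.9% of all genes.

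The licensing genes had a median log2 fold change of 0.29 over 4 genes, and none passed the test. Cdc6, an ATPase that helps to load the helicase, had 4.33, 3.53 and 4.04 on the cultured arrays, against 3.71, 2.96 and 3.04 on the fresh arrays. Fresh replicate 1 of Cdc6 lay within the cultured range, and the log2 fold change of 0.73 ± 0.27 (SE) had an adjusted p of 0.204. Orc6, the smallest subunit of the origin recognition complex, had 7.10, 5.84 and 6.16 on the cultured arrays, against 6.86, 6.33 and 6.68 on the fresh arrays. Its log2 fold change of -0.26 ± 0.32 (SE), with an adjusted p of 0.744, turned to 0.18 after quantile normalization, so no direction is given. Orc1, the largest subunit of that complex, was within background on all 6 arrays. Cdt1, which brings the helicase to origins, was at 0.35 with an adjusted p of 0.550.

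The polymerase and primase genes were dim, and 6 of 7 were within background on all fresh arrays. All 7 had positive values, with a median of 0.63, and none passed the test. Prim1, the primase subunit that makes the RNA primer, had 5.04, 3.06 and 3.20 on the cultured arrays, against 2.54, 2.64 and 2.79 on the fresh arrays. Cultured replicate 1 alone was above background for Prim1, and its log2 fold change of 1.11 ± 0.48 (SE), with an adjusted p of 0.281, was 0.47 without that array. Prim2, the large primase subunit, stood at 0.76 ± 0.18 (SE), adjusted p 0.0672, and passed after quantile normalization and with cyclic loess. Pola1, the catalytic subunit of polymerase alpha, had 2.53, 2.35 and 2.64 on the cultured arrays, against 2.14, 2.41 and 2.55 on the fresh arrays, within background on all 6, as was Pole, the catalytic subunit of polymerase epsilon. Pold1, the catalytic subunit of polymerase delta, was above background on every array, with no overlap between the groups, a log2 fold change of 0.63 ± 0.19 (SE) and an adjusted p of 0.120. Pole2, the accessory subunit of polymerase epsilon, stood at 1.09, adjusted p 0.197, and Pola2, that of polymerase alpha, at 0.39, adjusted p 0.224.

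The clamp and clamp loader genes were split. Pcna, the sliding clamp itself, had 9.07, 7.31 and 7.52 on the cultured arrays, against 9.03, 9.004 and 9.17 on the fresh arrays. Cultured replicate 1 was level with the fresh arrays and the other 2 were lower, so that the log2 fold change of -1.10 ± 0.42 (SE) had an adjusted p of 0.220. A second probe set of Pcna gave -1.04, with 9.11, 7.36 and 7.51 on the cultured arrays and 8.998, 8.95 and 9.16 on the fresh arrays. Without cultured replicate 1 Pcna passed as lower, at -1.65 with an adjusted p of 0.000405, and it also passed as lower with array weights, at -1.32 with an adjusted p of 0.0484. The difference was -0.42 after quantile normalization and -0.26 with cyclic loess. Pcna was the only replication gene with a mean above 8, where the median difference of all genes on cultured replicates 2 and 3 was -1.74 and -1.18, and its part in the values of Pcna was not tested. RefSeq lists 2 pseudogenes named after Pcna, which could share its probes. Of the loader subunits Rfc2 to Rfc5, which open the clamp, Rfc3 had 4.81, 3.79 and 4.10 on the cultured arrays, against 2.77, 3.00 and 3.52 on the fresh arrays. The groups of Rfc3 did not overlap, at 1.14 ± 0.29 (SE) and an adjusted p of 0.0828. Rfc3 passed as higher in 4 of 14 other settings, among them quantile normalization and cyclic loess. The other loader subunits overlapped, with Rfc4 at 0.46, Rfc5 at 0.28 and Rfc2 at 0.11, and Rfc2 at -0.12 without cultured replicate 1.

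In lagging-strand maturation neither gene passed, though the cultured arrays of both all lay above the fresh arrays, against 12.9% of all genes. Lig1, which seals the fragments, had 4.44, 4.34 and 4.18 on the cultured arrays, against 3.88, 3.52 and 3.33 on the fresh arrays. The log2 fold change of Lig1 was 0.75 ± 0.17 (SE), adjusted p 0.0611, and it passed as higher in 3 of 14 other settings. Fen1, the nuclease that trims flaps, had 3.79, 3.29 and 2.94 on the cultured arrays, against 2.66, 2.83 and 2.60 on the fresh arrays, with an adjusted p of 0.171. For Fen1 only cultured replicate 1 was above background. Behind the fork, Uhrf1, which recognises half-methylated DNA, had 3.92, 3.54 and 3.38 on the cultured arrays, against 2.00, 3.46 and 2.62 on the fresh arrays. Fresh replicate 2 of Uhrf1 lay within the cultured range, at 0.92 ± 0.35 (SE) and an adjusted p of 0.218. Of the histone chaperone CAF-1, Chaf1b was at 0.49 with no overlap and an adjusted p of 0.153. Chaf1a, its large subunit, had 3.12, 3.00 and 2.90 on the cultured arrays, against 2.99, 2.89 and 2.73 on the fresh arrays, within background on all 6.

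Signal strength limited these comparisons. Of the 38 genes, 25 were above background on every cultured array and 16 on every fresh array. In fresh cells 13 were within background on all 3 arrays, and 4 of these, Orc1, Pola1, Pole and Chaf1a, on all 6. Bounds above 1-fold could be given for 7 of the 13, namely 11.7-fold for Pclaf, 2.75-fold for Rrm1, 1.47-fold for Prim1, 1.34-fold for Pole2, 1.20-fold for Pola2, 1.18-fold for Chaf1b and 1.10-fold for Fen1. Without cultured replicate 1, no bound above 1-fold could be given for Prim1 and Fen1, and that of Pole2 was 1.009-fold.

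In most replication genes the 3 cultured arrays differed from each other more than the fresh arrays did. The SD was larger in cultured cells for 27 of the 38 genes, 71.1%, against 53.5% of all genes, with a median of 0.38 in cultured and 0.22 in fresh cells. Among the cultured arrays, replicate 1 was highest for 32 of the 38, 84.2%, against 41.9% of all genes, and replicate 2 was lowest for 27, 71.1%, against 45.4%. The median difference of the replication genes from the fresh mean was 0.93 on cultured replicate 1, 0.37 on replicate 2 and 0.52 on replicate 3. It was above 0 for 37, 31 and 36 of the 38 genes. Muscle differentiation genes had another order, with a median difference over 12 genes of 0.86, 1.47 and 3.05 on the same arrays. Cultured replicate 3 was highest for 11 of these 12, against 29.0% of all genes. The replication genes share their libraries, and no test was made of these orders.

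**Figure D4:**
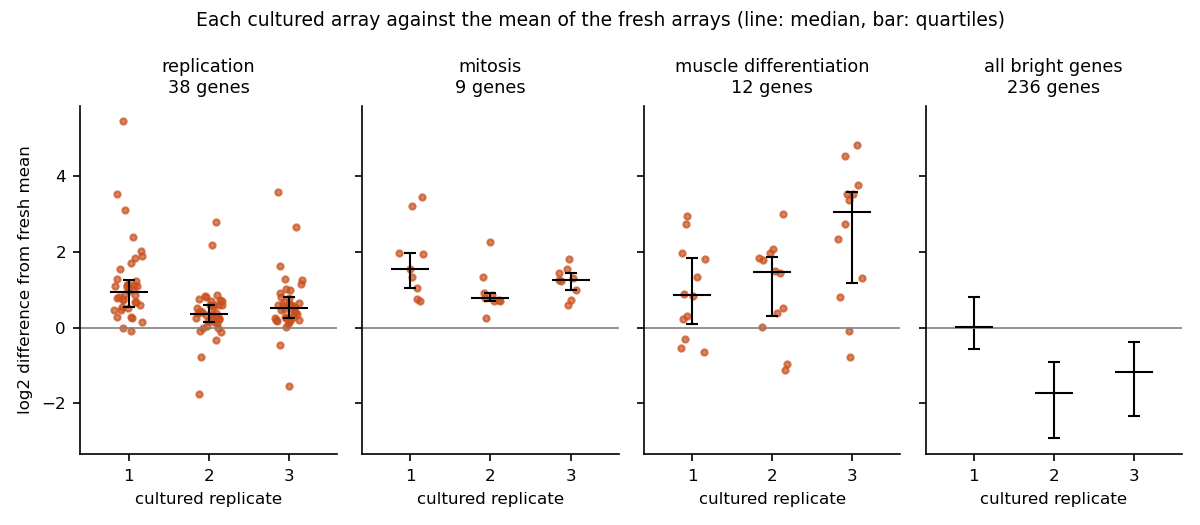
Log2 difference of each cultured array from the mean of the 3 fresh arrays, by cultured replicate, for 38 replication, 9 mitosis and 12 muscle differentiation genes (points) and for the 236 genes with a mean above 8; lines are medians and bars quartiles. Replication genes are highest on replicate 1 with a median of 0.93, differentiation genes on replicate 3 with 3.05, and bright genes are lowest on replicate 2 with -1.74.

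Further genes of replication were taken from a list of 59, of which 57 were measured. Of these 2 rose, against 0.953% of all genes, and 1 fell, against 3.37%. Their median log2 fold change was 0.24, against 0.04 for all genes. By limma, an unadjusted p under 0.05 was reached by 21 upward, against 8.58% of all genes, and by 4 downward, against 9.06%. Dctd, which makes the precursor of thymidine nucleotides, had 5.39, 5.20 and 5.21 on the cultured arrays, against 4.01, 4.38 and 4.35 on the fresh arrays. It rose by 1.02 ± 0.15 (SE) with an adjusted p of 0.00949, and kept its call in all 14 other settings. Rpa1, the large subunit of the protein that covers single-stranded DNA, had 4.21, 3.46 and 3.52 on the cultured arrays, against 2.53, 2.55 and 2.94 on the fresh arrays. All fresh values of Rpa1 were within background, so it rose at least 1.44-fold, with an adjusted p of 0.0478. Without cultured replicate 1 the bound of Rpa1 was 1.22-fold. Leaving out cultured replicate 3 or any fresh array ended the call of Rpa1, with a largest adjusted p of 0.166. Pold4, the smallest subunit of polymerase delta, had 4.45, 3.59 and 4.48 on the cultured arrays, against 6.40, 5.99 and 6.14 on the fresh arrays. On the log2 scale it fell by 2.00 ± 0.26 (SE), at an adjusted p of 0.00454, and kept its call in all 14 other settings. Pole4, a small subunit of polymerase epsilon named here after its value was seen, stood at -1.04, adjusted p 0.109, and passed as lower in 4 of 14 other settings. Top2a, the topoisomerase of dividing cells, stood at 1.73, adjusted p 0.0679, and passed as higher in 7 of 14 other settings. The mean of its 2 probe sets gave 0.79, adjusted p 0.185.

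Of 13 genes that control S phase, 2 rose, against 0.953% of all genes, and none fell, against 3.37%. By limma, 6 had an unadjusted p under 0.05 upward, against 8.58% of all genes, and 0 downward, against 9.06%. Ccna2, the cyclin of S phase and G2, had 5.44, 4.48 and 4.80 on the cultured arrays, against 3.18, 2.92 and 2.84 on the fresh arrays. With all fresh values within background it rose at least 3.25-fold, with an adjusted p of 0.00439, and kept its call in all 14 other settings. Without cultured replicate 1 the bound of Ccna2 was 2.71-fold. E2f8, a repressor of the E2F family that is itself made in S phase, had 4.25, 3.62 and 3.88 on the cultured arrays, against 2.87, 2.92 and 2.50 on the fresh arrays. It rose at least 1.63-fold with an adjusted p of 0.0182, and the bound was 1.455-fold without cultured replicate 1. Leaving out cultured replicate 3 or any fresh array ended the call of E2f8, with a largest adjusted p of 0.0819. Fbxo5, an inhibitor of the anaphase-promoting complex, had a fitted log2 fold change of 2.13 with an adjusted p of 0.0996. All fresh values of Fbxo5 were within background, so the difference was at least 2.65-fold, and at least 1.57-fold without cultured replicate 1.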

How the data were processed

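Per the labels' protocols, RNA of 6 samples was extracted with Trizol, labelled with biotin and read on Affymetrix whole-transcript arrays. The authors deposited log2 expression values of 35556 probe sets with no missing value. RMA and the package oligo, versions not stated, are named in the submitters' processing notes. RMA corrects background, normalizes quantiles and compresses differences near background. The deposited arrays nevertheless did not share the same distribution. By replicate, the same high percentile of each array was 12.0, 9.43 and 9.96 for cultured arrays, against 11.9, 12.2 and 11.9 for fresh arrays. The main fit used these values with no further scaling, and the cause of the difference was not tested. The sources used here do not name the authors' genome build.

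The platform annotation gave 21789 probe sets exactly 1 gene, of which 21698 matched a RefSeq gene ID of GRCm38.p6 and took its current symbol. It gave 1621 probe sets several genes and did not list 12146; these were not used. Each gene was represented by its brightest probe set on average over the 6 arrays, leaving 19938 genes.

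Groups were compared with limma 3.58.1 in R 4.3.3 (lmFit, eBayes, group as the only term), with Benjamini-Hochberg adjustment over all genes and a threshold of 0.05. Background was the 95th percentile of 1194 receptor genes of smell (olfactory and vomeronasal), taken on each array. Where every array of a group lay within it, the fold is given as a bound, the mean of the other group against the mean of those levels. Promoter windows came from RefSeq, GRCm38.p6. The members and lists were chosen with earlier results of these data known. Values on every array are given for members past the test, the members with the highest and lowest fold change of each role, and Pcna, Mcm2 and Pola1. Rrm1 and Rfc3 were chosen with their values in view. Other pathway genes are named where past the test or among the 2 with the largest absolute fold change of their list; of mitosis and differentiation genes the 3 with the largest are named. The alternatives were a replicate block, further normalizations, a filter on dim genes, the mean of probe sets, other priors and weights, and omission of each array in turn. The fitting code was first tested on simulated data.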

Additional observations from a re-analysis of the deposited data

How the results depend on the processing

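Over 14 other settings, 35 of the 38 replication genes had a positive log2 fold change in each one that tested them; the exceptions were Pcna, negative in all 14, Orc6, at 0.18 after quantile normalization and from -0.62 to 0.0065 with 1 array left out, and Rfc2, from -0.12 to 0.34 with 1 array left out; the cause was not tested. The median over the 38 was 0.61 after quantile normalization and 0.56 with cyclic loess. The number of genes past an adjusted p of 0.05 was 861, of which 4 were replication genes. It was 1511 with 12 after quantile normalization, 1492 with 9 under cyclic loess and 1742 with 14 under array weights, all holding the same 4; the cause was not tested. Leaving out 1 array gave 448 to 1517 genes and 1 to 7 replication genes. With 1 array left out a group holds 2 arrays, so fewer calls can follow from that alone. The labels do not say whether the replicate numbers pair the samples. Same-numbered arrays had correlations of their deviations of -0.09, -0.14 and 0.03. No cultured array correlated best with the fresh array of its own number. Of the fresh arrays, only replicate 3 correlated best with its own number. With 3 arrays per group, these values cannot show or exclude shared mice. With the numbers as a replicate block, 662 genes and the same 4 replication genes passed, while Rpa1, Cdk1 and Aurka did not. A trended and robust prior gave 6 replication genes, and the dim-gene filter, which kept 27 of the 38, gave the same 4, as did the mean of probe sets and weights by group. With 13 of the 38 within background on all fresh arrays, fold changes of those genes are limited by the signal over background.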

Other observations

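Of 10 mitosis genes 9 were measured. In the cultured cells 6 rose, against 0.953% of all genes, and none fell, against 3.37%. All 9 reached an unadjusted p under 0.05 upward by limma, against 8.58% of all genes. The cultured arrays all lay above the fresh arrays for all 9, against 12.9% of all genes. Their median log2 fold change was 1.20. Birc5, survivin, was at 2.42 with an adjusted p of 0.0186, Cdk1, the mitotic kinase, at 2.12 with 0.0366, and Aurka, a spindle kinase, at 1.34 with 0.0347. Leaving out any fresh array ended the call of Birc5, and leaving out any fresh array or cultured replicate 3 ended those of Cdk1 and Aurka. Of the 9 genes 7 were highest on cultured replicate 1 among the cultured arrays, against 41.9% of all genes.

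Of the 12 muscle differentiation genes 5 rose, against 0.953% of all genes, and 1, Ckm, fell, against 3.37%. Tnnc1, the slow-muscle troponin C, was at 3.53 with an adjusted p of 0.00668, Actc1, the cardiac actin, at 2.87 with 0.0445 and Tnnt2, the cardiac troponin T, at 2.72 with 0.00735. Without cultured replicate 3, Tnnc1 was at 2.88 and Actc1 at 2.03, and with array weights at 4.23 and 3.73. Actc1 was at 3.55 after quantile normalization. Leaving out any fresh array ended the call of Actc1. Of 10 satellite cell markers 6 fell, against 3.37% of all genes, and the median log2 fold change of the 10 was -1.62. Among the brightest of the 10, Sdc4 fell by 2.91 on the log2 scale, while Myod1 was at -0.41 and Itgb1 at -0.55, neither past the test.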
